A study of Mus musculus with 8 samples.

Results

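Cells grown to passage 8 from the mouse left atrial appendage were compared with left ventricular wall on 4 of the 8 one-colour microarrays of a study of c-kit-positive heart cells. Each group held 2 arrays, which were chosen by their sample labels and not by any measured value. The passage 8 cells were derivatives of c-kit+/CD45+ primary cells, which had been sorted from explant cultures of left atrial appendages, a pouch of the left atrium, taken from adult C57BL/6 mice aged 8 to 12 weeks. The ventricle samples were biopsies of the left ventricular wall of C57BL/6 mice aged 12 weeks, and served as the control tissue. The remaining 4 arrays held primary cells of the same atrial source and strain at 8 to 12 weeks: 2 of c-kit+/CD45+ cells after weak digestion with 0.05% trypsin, from which the passage 8 cells descended, and 2 of c-kit+/CD45- cells after strong digestion with 0.25% trypsin. The labels state no sex, no clone and no number of animals per sample, and do not say whether the replicates of a group were separate cultures or animals. The p-values therefore rest on how far the samples of a group lay apart, and that distance may be technical alone.

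The comparison set a culture in serum-containing medium against a whole tissue that holds muscle, vessels, nerves, blood and connective tissue. Cell RNA was prepared with a column kit and ventricle RNA with Tri-reagent, so the atrial or ventricular origin, the culture, the mix of cell types and the RNA reagent cannot be told apart in any difference given here. Each array received 200 ng of RNA labelled with the dye Cy3. In such bulk samples, fewer cells of a type and less RNA per cell cannot be told apart.

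Levels are log2 signals relative to the 75th percentile of their own array, so that 0 is the level that 25% of the probes exceeded and each unit is a doubling. Of 35019 gene names, 24122 were tested, because in passage 8 cells, in the ventricle or in both their probe stood well above background on each of the 2 arrays. A gene is said to have risen or fallen in the passage 8 cells where limma gave an adjusted p (Benjamini-Hochberg, over all genes tested) under 0.05 and a difference of at least 2-fold. Where a gene was not well above background on any array of the dimmer group, its fold is given as "at least", measured against the lowest signal well above background on those arrays or the probe's own signal if higher. The 75th percentile signal was 973.9 to 976.5 units on the passage 8 arrays and 569.4 to 600.2 units on the ventricle arrays, and 60.4% to 69.9% and 56.7% to 60.1% of their probes were well above background. All 8 arrays came from 1 slide, and no spot was saturated.

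The passage 8 arrays were the closest replicates of the series and the ventricle arrays were further apart. Over 18053 genes seen on all 8 arrays, the root mean square SD within a group was 0.147 for passage 8 and 0.365 for left ventricle, against 0.177 for the CD45-positive and 0.534 for the CD45-negative primary cells. The second ventricle array stood apart in genes of the atrial chamber. Sln, the atrial regulator of the calcium pump sarcolipin, measured -5.12 on ventricle replicate 1 and 6.94 on replicate 2, and the atrial light chain Myl7 measured -2.55 and 5.21. Myl4, the other atrial light chain, measured 0.72 and 7.76, and Mybphl, an atrial myosin-binding protein, -4.45 and 2.15. The atrial hormone Nppa measured 5.95 and 8.78. Of the ventricular genes, the light chain Myl2 measured 9.40 and 9.41, and Myl3 10.21 and 9.99, while the beta myosin heavy chain Myh7 measured 3.87 and 5.75 and the calcium store gene Casq2 5.70 and 4.25. The iron hormone Hamp was also higher on replicate 2, at -7.21 and -0.29, and the transferrin receptor Tfrc lower, at 2.79 and -1.25. The summed signal of the 10 adipocyte markers was 5.57 times the 75th percentile on replicate 1 and 18.8 times on replicate 2. Results that rest on 1 ventricle array are therefore given with and without it.

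**Figure D1:**
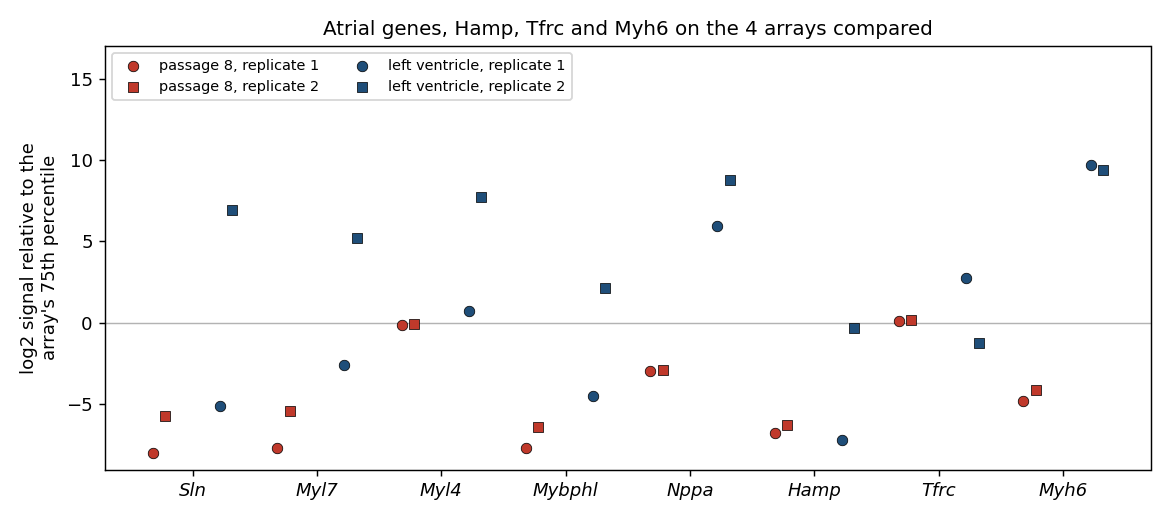
Log2 signal relative to each array's 75th percentile (vertical axis) of the atrial genes Sln, Myl7, Myl4, Mybphl and Nppa, of Hamp and Tfrc, and of Myh6 for reference, with 1 point per array for passage 8 (red) and left ventricle (blue), circles for replicate 1 and squares for replicate 2. The ventricle arrays lay together for Myh6, at 9.72 and 9.38, and far apart for Sln, at -5.12 and 6.94.

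Cardiac muscle cells hold most of the RNA of a ventricle: they contract through sarcomeres of myosin, actin, troponin and titin, cycle calcium through the sarcoplasmic reticulum and burn fatty acids in abundant mitochondria. They rarely divide in the adult. Stromal cells in culture, by contrast, divide, spread on a stiff surface and lay down collagen and fibronectin, and their Hox genes commonly record the body position or culture from which they came.

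Of the 24122 genes tested, 4904 rose (20.3%) and 4546 fell (18.8%), together 39.2%, and the median difference of all genes tested was 0.05. At an unadjusted p under 0.05, 6951 were higher and 6041 lower. By at least 8-fold, 1059 genes rose and 1754 fell, and by at least 64-fold 104 rose and 516 fell. The 2 groups did not overlap for 81.9% of the genes tested. On both arrays of a group and on neither of the other, 1392 genes (5.77%) were well above background only in passage 8 cells and 948 (3.93%) only in the ventricle. Leaving out ventricle replicate 2 left 8144 genes past the thresholds, 4135 higher and 4009 lower. Of the 2668 called genes with several tested probes, 1058 had a probe that did not pass in the same direction and 79 a probe that passed in the opposite direction.

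Of the 6 genes that mark the comparison, 5 were high in the passage 8 cells and 1 in the ventricle. Dlk1, a membrane protein of fetal and progenitor cells (probe at chr12:110698721-110698781, mm9), measured 6.69 and 6.67 on the passage 8 arrays and -2.83 and -3.56 on the ventricle arrays. Dlk1 was higher by 9.88 ± 0.29 (SE), or 940-fold, with a limma adjusted p of 4.61e-05. Grem1, a secreted BMP antagonist (chr2:113589227-113589286), measured 4.05 and 4.17 in passage 8 cells and was not well above background in the ventricle, at least a 538-fold rise (limma adjusted p = 0.000479). Hoxa7, a positional transcription factor (chr6:52165626-52165685), measured 3.25 and 3.27 against -4.23 and -4.24, a rise of 7.50 ± 0.54 (limma adjusted p = 0.000304). Bnc1, a transcription factor of mesothelium and stratified epithelium (chr7:89111978-89112037), measured 3.39 and 3.45 against -4.10 and -3.87, a rise of 7.41 ± 0.33 (limma adjusted p = 0.000101). Steap1, a membrane metalloreductase relative (chr5:5736369-5736428), measured 3.53 and 3.64 and was not well above background in the ventricle, at least a 374-fold rise (limma adjusted p = 4.25e-05). Myh6, the adult cardiac alpha myosin heavy chain (chr14:55560774-55560833), measured -4.78 and -4.11 against 9.72 and 9.38, a difference of -13.99 ± 0.52, or 16288-fold (limma adjusted p = 7.66e-05). The passage 8 and ventricle arrays did not overlap for these 6 genes, as for 81.9% of all genes tested.

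The 4 primary arrays show which of these genes were already high in the freshly sorted cells; these comparisons share the passage 8 arrays. Dlk1 measured -5.03 and -5.30 in the CD45-positive and -4.35 and -4.33 in the CD45-negative primary cells, and passage 8 cells were higher by 11.84 ± 0.29 and 11.02 ± 0.29 (limma adjusted p = 0.000406 and 0.000424). Hoxa7 and Bnc1 were likewise higher than in both primary groups. Steap1 measured 1.90 and 1.72 in the CD45-positive cells and 4.18 and 4.43 in the CD45-negative cells, so that passage 8 cells were 1.78 ± 0.23 above the CD45-positive cells and different by -0.72 ± 0.23 from the CD45-negative cells, the latter difference not past the threshold (limma adjusted p = 0.00411 and 0.0889). Grem1 measured -1.37 and -1.22 in the CD45-positive cells, over which passage 8 cells were higher by 5.41 ± 0.94 (limma adjusted p = 0.0105), and 0.06 and 3.20 in the CD45-negative cells, a difference of 2.48 ± 0.94 that did not pass (limma adjusted p = 0.133).

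The genes of the 2 sort markers were dim in the passage 8 cells. Kit, the c-kit receptor, measured -5.68 and -5.55 there and -1.48 and -2.48 in the ventricle. For Kit the groups did not overlap, but the difference of -3.64 ± 1.44 did not pass with all 8 arrays in the fit (limma adjusted p = 0.0865), while it did with the CD45-negative arrays left out (limma adjusted p = 0.00211). Ptprc, which encodes the leukocyte phosphatase CD45, measured -5.57 and -5.18 against -2.33 and -2.89, a difference of -2.76 ± 0.69 (limma adjusted p = 0.021). Ptprc was no longer called when any 1 of these 4 arrays was left out, with a limma adjusted p between 0.0549 (passage 8 replicate 2) and 0.105 (ventricle replicate 1). In the CD45-positive primary cells Ptprc averaged 1.98, and passage 8 cells were lower.

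**Figure D2:**
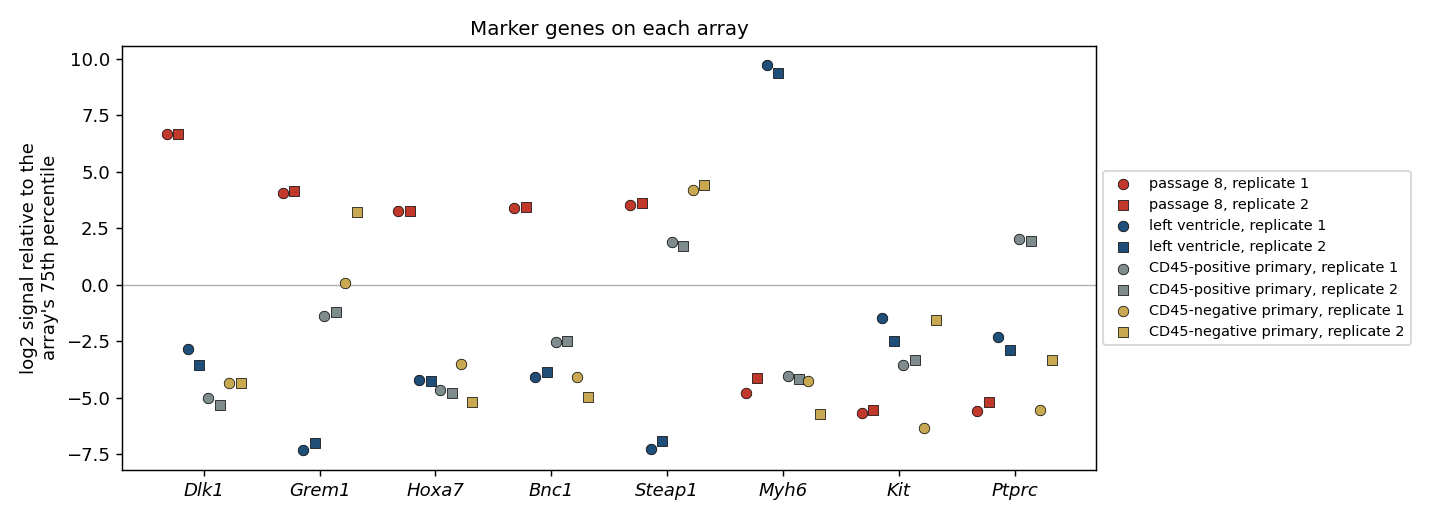
Log2 signal relative to each array's 75th percentile (vertical axis) of the 6 marker genes and of Kit and Ptprc, with 1 point per array for the passage 8, left ventricle, CD45-positive and CD45-negative groups, circles for replicate 1 and squares for replicate 2. Dlk1 measured 6.69 and 6.67 on the passage 8 arrays and lay below 0 on the other 6 arrays, and Myh6 lay above 0 on the ventricle arrays alone.

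By size, the largest rises among genes seen on all 4 arrays were those of Dlk1, Hoxa7 and Bnc1, then Thbs1, a matrix glycoprotein that activates TGF-beta, by 7.09. Plppr3, a phospholipid phosphatase relative, rose by 7.02 by its brighter probe, while another probe differed by 3.05 and did not pass. Clca3a2, a chloride channel accessory gene, rose by 6.90, the cholesterol enzyme Sqle by 6.85 and the collagen cross-linking enzyme Lox by 6.85. Single ventricle arrays moved 4 of these values. With 1 ventricle array left out, Thbs1 was higher by 5.74 to 8.43, Clca3a2 by 6.22 to 7.59, Sqle by 6.09 to 7.62 and Lox by 5.34 to 8.35. Among genes not seen in the ventricle, the highest bounds after Grem1 and Steap1 were Fam110c at least 314-fold (a second probe differed by 0.61 and did not pass), Foxa2, a pioneer factor of endoderm, at least 295-fold, the adenylate kinase Ak5 at least 232-fold and the aggrecanase Adamts4 at least 230-fold.

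The 8 largest falls among genes seen on all 4 arrays were of muscle and red cell genes. After Myh6 came the ventricular light chain Myl3 (-13.67), the titin cap Tcap (-12.82), alpha globin Hba-a1 (-12.50), whose probe may also read its near-identical copy, the cardiac myosin-binding protein Mybpc3 (-12.35), the M-band protein Myom2 (-12.18), the muscle cytochrome oxidase subunit Cox6a2 (-11.58) and the insulin-responsive glucose transporter Slc2a4 (-11.43). With 1 passage 8 array left out, the difference of Tcap ran from -13.43 to -12.20 and that of Slc2a4 from -12.29 to -10.57. Genes not seen in passage 8 cells had still larger bounds: Actc1 fell at least 52849-fold, Mb at least 42605-fold, Myh8 at least 30666-fold, Ckmt2 at least 20527-fold, Cox8b at least 15162-fold and Ttn at least 9895-fold. The fitted differences of Ttn (-14.64) and Myh8 (-15.89) were -13.74 and -14.86 without passage 8 replicate 1. The Myh8 probe may read other sarcomeric myosins of near-identical sequence, and another of its 3 probes did not pass.

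Sarcomere and Z-disc genes were far lower in the culture. Of 32 tested, 29 fell and 1 rose, against 18.8% and 20.3% of all genes, with a median difference of -9.95 against 0.05 for all genes. Their summed signal was 121.3 and 124.1 times the 75th percentile on the passage 8 arrays and 7858 and 6885 times on the ventricle arrays. Actc1, cardiac alpha actin, measured -7.84 and -7.49, not above background, against 10.22 and 9.75 (limma adjusted p = 0.000567). Myl3 measured -3.63 and -3.52 against 10.21 and 9.99, a difference of -13.67 ± 0.32 (limma adjusted p = 4.25e-05). The passage 8 and ventricle arrays were far apart for both.

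Tnnt2, Acta1 and Tpm1 were well above background in passage 8 cells, and each was higher there than in the CD45-positive cells, by 2.64 ± 0.53, 1.72 ± 0.23 and 1.63 ± 0.33 (limma adjusted p = 0.0164, 0.00478 and 0.0171). Tnnt2, cardiac troponin T, measured 2.41 and 2.42 against 9.25 and 9.02, a difference of -6.72 ± 0.53, and stood above both primary groups, which averaged -0.23 and -1.25. Acta1, skeletal alpha actin, measured 2.75 and 2.81 against 5.73 and 5.69, a difference of -2.93 ± 0.23. Tpm1, the tropomyosin shared by muscle and other cells, was the member that rose, at 4.87 and 4.79 against 1.02 and 1.43. That rise of 3.60 ± 0.33 is of the brightest Tpm1 probe: of its 6 probes 2 rose and 2 fell, with differences from 3.60 to -7.94, and the mean of all probes fell by 1.40. Tnni1, the fetal slow troponin I, did not pass, at -2.84 and -2.41 against -3.29 and -3.06. Myl4 did not pass with a difference of -4.35 ± 2.07, which was -0.82 without ventricle replicate 2 and -7.87 without replicate 1, where it passed.

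The promoters of Actc1 and Myl3 are printed because these genes had the largest bound among the falls and the largest measured fall after Myh6, and because each holds a CArG box, the site of serum response factor, here in capitals. They are the 250 bases before the start of transcription, 5′ to 3′ on the gene's strand, from RefSeq on GRCm38.p6, at chr2:114052876-114053125 (minus strand) for Actc1 and chr9:110763428-110763677 (plus strand) for Myl3.
Actc1: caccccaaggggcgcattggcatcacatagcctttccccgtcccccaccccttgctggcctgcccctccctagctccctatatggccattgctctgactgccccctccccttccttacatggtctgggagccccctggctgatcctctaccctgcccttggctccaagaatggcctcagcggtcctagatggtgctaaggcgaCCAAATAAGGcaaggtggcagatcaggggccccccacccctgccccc
Myl3: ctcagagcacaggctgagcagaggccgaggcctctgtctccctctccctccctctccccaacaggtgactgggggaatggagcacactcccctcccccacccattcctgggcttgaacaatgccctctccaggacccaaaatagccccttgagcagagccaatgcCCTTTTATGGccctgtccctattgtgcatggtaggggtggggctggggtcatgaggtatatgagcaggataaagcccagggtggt
Promoters were found for 27 of the 32 sarcomere genes, in 38 windows since some genes have several starts. A CArG box, searched on both strands, was in 10 of the 38 windows (26.3%), against 1.47% of 32851 windows of all 27025 genes in the table. Windows of the same gene were counted separately, and Fhl2 and Ldb3 held a CArG box in each of theirs. A MEF2 site was in 4 of 38 (10.5%) against 1.69%. The TATA box, searched as TATAAA, was in 4 of 38 against 12.4%, and the CCAAT box, searched as CCAAT, in 13 of 38 (34.2%) against 33.8%. A CArG box may begin with the letters of a CCAAT box, and a MEF2 site may hold those of a TATA box. None of the 17 windows of calcium-handling genes held a CArG box. Such matches describe letters in a window, not bound sites.

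Calcium-handling genes fell by unequal amounts. Of 17 tested, 13 fell and none rose, where 18.8% and 20.3% of all genes did, with a median of -2.40. Pln, phospholamban, the brake of the calcium pump, measured -7.75 and -7.25, not above background, against 7.33 and 7.0, a fall of at least 7496-fold (limma adjusted p = 4.25e-05). Atp2a2, the pump itself, measured 0.49 and 0.50 against 8.85 and 8.80, a difference of -8.33 ± 0.19. Casq2, the calcium store protein, fell at least 1644-fold; the fitted difference of Casq2, -11.54, was -10.80 without passage 8 replicate 1. The exchanger Slc8a1, at -2.89 and -2.47 against -2.10 and -2.92, did not pass by its brightest probe, whereas 2 of its 3 probes passed as lower. Leaving out ventricle replicate 1 gave 1 gene of this list as higher.

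Of 24 channel and intercalated disc genes, 19 fell and none rose, where 18.8% and 20.3% of all genes did, with a median of -4.94. Dsp, the desmosomal plaque protein, fell at least 2849-fold, and the potassium channel Kcnd2 at least 347-fold. Pkp2, plakophilin, measured 1.47 and 1.49 against 5.45 and 5.79 and fell by 4.14 ± 0.31. Pkp2 was higher in passage 8 cells than in CD45-positive and CD45-negative cells, by 1.14 ± 0.31 and 4.20 ± 0.31 (limma adjusted p = 0.0415 and 0.00161). Gja1, the main ventricular gap junction protein connexin 43, measured 0.79 and 0.52 against 2.56 and 2.23, a difference of -1.74 ± 0.24 (limma adjusted p = 0.00236), and stood above both primary groups. Cdh2, N-cadherin, measured 4.93 and 4.88 against 5.53 and 4.83, and the ventricle arrays enclosed the passage 8 arrays. Leaving out passage 8 replicate 1 gave 1 gene of this list as higher.

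Cardiac transcription factors split. Of 24 tested, 14 fell and 2 rose, where 18.8% and 20.3% of all genes did, with a median of -2.12. The coactivator Myocd was not above background in passage 8 cells and fell at least 330-fold. Nkx2-5, a founding factor of heart muscle, measured -5.63 and -4.66 against 4.19 and 4.55, a difference of -9.51 ± 0.47. Tbx5 fell by 6.32 ± 0.73, and Hopx by 6.29 ± 0.60. Gata4 and Gata6, which are shared by muscle, lining and stromal cells of the heart, did not pass against the ventricle. Gata4 measured 2.23 and 2.29 against 2.62 and 2.99, and Gata6 4.34 and 4.17 against 3.30 and 3.94 (limma adjusted p = 0.138 and 0.208). Both were higher in passage 8 than in CD45-positive cells, Gata4 by 1.39 ± 0.26 and Gata6 by 3.58 ± 0.37 (limma adjusted p = 0.0133 and 0.0022), and Gata4 differed by -1.16 ± 0.26 from the CD45-negative cells (limma adjusted p = 0.0369). Nr2f1, a factor of the atrium, was among those that rose. Nr2f1 measured 2.91 and 2.92 against 0.94 and 1.33, a rise of 1.78 ± 0.29.

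Genes of the natriuretic system, by which heart muscle signals volume load, fell in 5 of 7 cases with none higher. Among all genes 18.8% fell and 20.3% rose. Nppb measured -5.09 and -4.47 against 4.38 and 4.69, a difference of -9.31 ± 0.40, and Corin, the protease that activates these peptides, fell at least 419-fold. Nppa fell by 10.27 ± 0.86, and by 8.86 without ventricle replicate 2. The summed signal of the 8 genes was 106.2 on ventricle replicate 1 and 497.1 on replicate 2, against 12.8 and 12.5 on the passage 8 arrays. Without ventricle replicate 2, or without passage 8 replicate 1, 3 of 7 fell.

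Genes of mitochondrial fuel use were lower in nearly every case. Of 28 fatty acid oxidation genes 26 fell, of 19 citrate cycle genes 17 and of 50 respiratory chain and ATP synthase genes 48. No gene of these lists rose, while 18.8% of all genes fell and 20.3% rose. The medians of the lists were -3.79, -3.08 and -2.67. Cpt1b, the muscle gate of fatty acid entry into mitochondria, measured -2.19 and -1.92 against 5.05 and 4.97, a difference of -7.06 ± 0.60. Fabp3, the heart fatty acid carrier, fell by 7.27 ± 0.76 and Ppargc1a, the coactivator of mitochondrial biogenesis, by 7.28 ± 0.43. Ogdh fell by 3.98 ± 0.19 and citrate synthase, Cs, by 2.55 ± 0.22. The summed signal of the 50 respiratory chain genes was 2050 and 2056 in passage 8 cells and 13260 and 10530 in the ventricle, and that of the citrate cycle genes 404.9 on both passage 8 arrays against 3313 and 2864. The medians of the same lists in the primary cells relative to the ventricle, which share the ventricle arrays, were -3.49 and -4.01 for fatty acid oxidation and -2.69 and -2.68 for the respiratory chain, where 19.8% and 19.2% of all genes were lower.

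Creatine and oxygen stores showed opposed members. The oxygen store Mb and the mitochondrial creatine kinase Ckmt2, neither above background in passage 8 cells, fell by the bounds given above, and the muscle creatine kinase Ckm fell at least 3413-fold. The fitted difference of Ckm, -12.79, was -13.75 without passage 8 replicate 2 and -11.83 without passage 8 replicate 1. Of 8 genes, 4 fell and 2 rose, where 18.8% and 20.3% of all genes did. The 2 that rose make creatine: Gamt, at 3.26 and 3.21 against 1.08 and 0.56, and Gatm, at -0.09 and -0.18 against -1.65 and -2.47. Both calls were lost without ventricle replicate 2 (limma adjusted p = 0.063 for Gamt and 0.0634 for Gatm), and Gatm also without passage 8 replicate 1 (limma adjusted p = 0.0519).

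Within glucose use, muscle or heart forms and general forms of the same enzyme or carrier moved apart. Of 23 genes, 7 rose and 5 fell, where 20.3% and 18.8% of all genes did, with a median of 0.66. The muscle or heart forms made up the falls: Slc2a4, Pgam2 by 6.63 ± 0.28, Eno3 by 5.53 ± 0.34, Pfkm by 4.40 ± 0.23 and the heart form Ldhb by 4.36 ± 0.21. The difference of Slc2a4, -11.43, was -10.57 without passage 8 replicate 1. Among the general forms, Slc2a1, the basal glucose transporter, measured 4.36 and 4.27 against 0.96 and 1.32, a rise of 3.18 ± 0.21. Pgam1 measured 7.25 and 7.23 against 3.94 and 3.98, a rise of 3.28 ± 0.19, and Eno1 rose by 1.55 ± 0.21. Slc16a3, which exports lactate, showed the largest rise of the list, at 5.22 and 5.29 against -1.02 and -0.78, by 6.15 ± 0.22 or 71.1-fold. Ldha, at 8.06 and 8.08 against 8.15 and 7.55, lay between the ventricle arrays, and Gapdh differed by -0.41 ± 0.20; neither passed, although 1 of 3 Ldha probes rose, by 1.13. Among cytochrome oxidase subunits the muscle forms Cox6a2, Cox7a1 and Cox8b fell, Cox7a1 with a difference of -9.08 ± 0.26, while their general forms Cox6a1 (0.47 ± 0.21) and Cox8a (0.71 ± 0.19) did not pass and Cox7a2 fell by 2.0 ± 0.22.

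**Figure D3:**
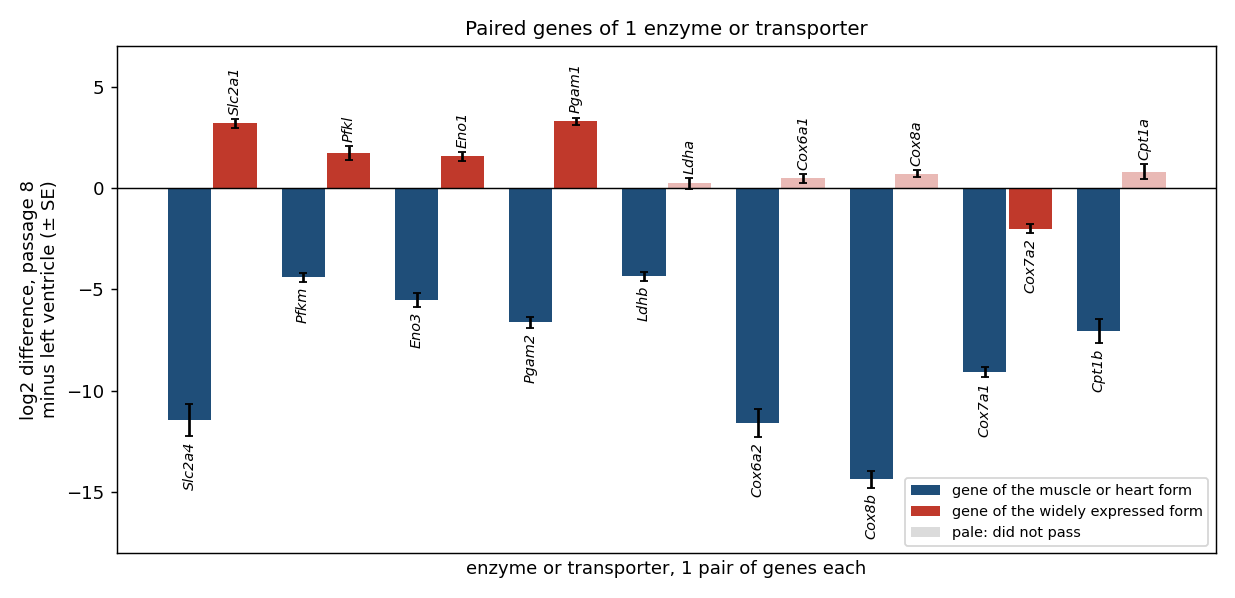
Log2 difference, passage 8 minus left ventricle (vertical axis, bars with SE), for 9 pairs of genes of 1 enzyme, carrier or subunit, blue for the muscle or heart form, red for the widely expressed form and pale where the gene did not pass. Each of the 9 muscle or heart forms lies below 0, from -4.36 for Ldhb to -14.35 for Cox8b, which was not above background in passage 8 cells. Of the widely expressed forms only Cox7a2 lies below 0.

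Most endothelial markers were lower in the culture. Of 24 endothelial genes 22 fell and none rose, where 18.8% and 20.3% of all genes did. The median of the list was -6.89, and its summed signals were 25.2 and 25.3 against 532.8 and 731.1. Cdh5, the cadherin of endothelial junctions, was not above background in passage 8 cells and fell at least 507-fold, and Tie1 at least 257-fold. Kdr, the main VEGF receptor, measured 2.72 and 2.68 against 3.59 and 2.83 and did not pass by its brightest probe, while the other Kdr probe fell by 7.83. Of 15 pericyte and smooth muscle genes tested, 9 fell and 1 rose, against the same shares of all genes. The summed signal of this list, however, was 241.1 and 243.9 in passage 8 cells against 225.5 and 158.2 in the ventricle. Rgs5, a pericyte gene, fell at least 1414-fold. Tagln, an actin-binding protein of smooth muscle and of spread cultured cells, was the 1 that rose, at 6.48 and 6.44 against 3.09 and 4.57, by 2.63 ± 0.47, or 1.89 without ventricle replicate 1. Acta2 measured 6.47 and 6.50 against 6.32 and 4.96 and did not pass; the ventricle arrays differed by more than the groups, and without ventricle replicate 1 it rose by 1.53 (limma adjusted p = 0.011).

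While 20.3% of all genes rose over the ventricle and 18.8% fell, no macrophage gene rose in the passage 8 cells. Of 28 tested, 22 fell, with a median of -5.10 and summed signals of 36.4 and 36.9 in passage 8 cells, 143.3 and 122.4 in the ventricle and 2328 and 2239 in the CD45-positive primary cells. That count was 10 of 28 without ventricle replicate 1, 12 of 29 without ventricle replicate 2 and 12 of 28 without passage 8 replicate 1. C1qc, a complement component of tissue macrophages, measured -7.85 and -7.56, not above background, against 2.69 and 2.24, at least a 288-fold fall (limma adjusted p = 0.00164), and averaged 7.20 in the CD45-positive cells. Lyve1, a hyaluronan receptor of resident macrophages and lymphatics, fell at least 88.1-fold. Csf1r, the receptor for macrophage growth factor, kept a signal of 2.27 and 2.20 against 4.61 and 4.34, and Cd68 one of 0.07 and 0.04 against 1.13 and 1.30; Csf1r and Cd68 did not pass with all arrays, and did with the CD45-negative arrays left out (limma adjusted p = 0.000865 and 0.00356). Against the CD45-positive cells, 26 of 28 tested macrophage genes were lower in passage 8 cells, where 10.9% of all genes were.

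Among all genes 18.8% fell and 20.3% rose, the shares to set beside the counts that follow. Of 12 lymphocyte and mast cell genes, 6 fell, including Cpa3, the mast cell carboxypeptidase, at least 12.8-fold, and none rose. All 3 red cell genes tested fell, among them Alas2, the haem enzyme of red cells, at least 165-fold. The call of Slc4a1, the red cell anion exchanger, with a difference of -2.01 ± 0.65 (limma adjusted p = 0.0486), was lost without any 1 of the 4 arrays compared (limma adjusted p = 0.0575 to 0.192) and without either CD45-positive array (limma adjusted p = 0.0731). Of 12 Schwann and neural crest genes 7 fell, including the nerve potassium channel Kcna1 at least 62.1-fold. The 1 that rose, Mbp, by 3.07 ± 0.71, was no longer called without any of 3 arrays, ventricle replicate 1 (2.70, limma adjusted p = 0.087), passage 8 replicate 1 (3.07, limma adjusted p = 0.0506) or passage 8 replicate 2 (3.06, limma adjusted p = 0.0544), and 2 of its 3 probes passed. Of 7 adipocyte genes, 4 fell, or 2 without passage 8 replicate 1.

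Skeletal muscle regulators gave no common direction. Of 14 genes 6 were tested, 3 rose and 2 fell, where 20.3% and 18.8% of all genes did. The median of the list, -0.14, changed sign under other settings. Pax3, a factor of muscle and neural crest progenitors, measured 1.54 and 1.48 against -3.43 and -3.19, a rise of 4.82 ± 0.21 (limma adjusted p = 9.45e-05), and exceeded both primary groups. Myf6 and Myh8 fell. The muscle troponin gene Tnnt3 rose by 2.25 ± 0.50, a call lost without ventricle replicate 1 (limma adjusted p = 0.0504) and without passage 8 replicate 2 (limma adjusted p = 0.0558), and Tnnt3 was higher by 2.87 without ventricle replicate 2. The rise of Myod1, the master factor of skeletal muscle, at -4.68 and -3.87 against a ventricle not above background, was lost without passage 8 replicate 2 (limma adjusted p = 0.159), without ventricle replicate 2 (limma adjusted p = 0.147) and without either CD45-positive array (limma adjusted p = 0.0638). Without passage 8 replicate 2, 1 of the 6 genes was higher.

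**Figure D4:**
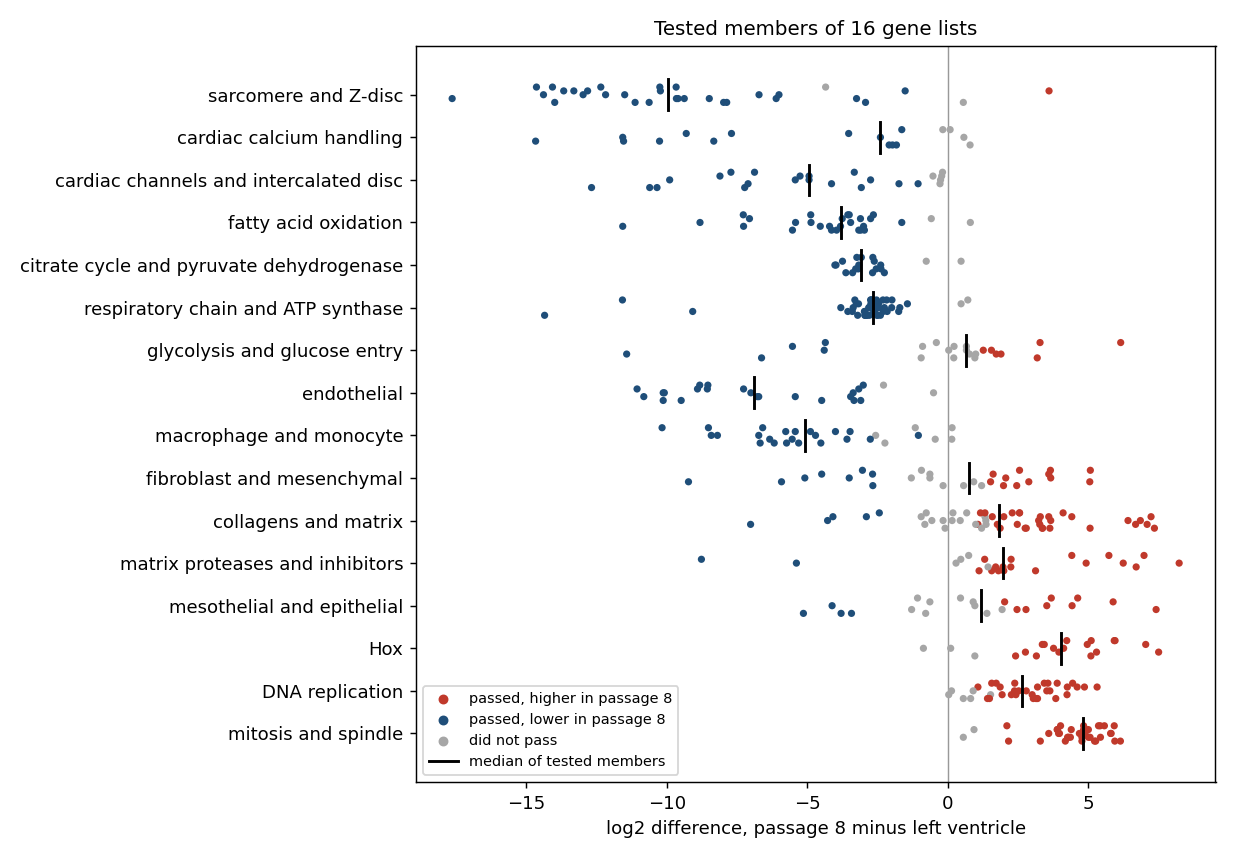
Log2 difference, passage 8 minus left ventricle (horizontal axis), of each tested member of 16 gene lists (rows), red where it rose, blue where it fell and grey where it did not pass, with a black line at the median of the tested members. Sarcomere members lie far to the left, with a median of -9.95, and mitosis members to the right, with a median of 4.80.

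The fibroblast list held members of both directions, 12 higher and 8 lower of 28, where 20.3% and 18.8% of all genes were. The median was 0.74, and summed signals were 1386 and 1370 against 605.4 and 887.4. Fibrillar collagens, an adhesion receptor and mesenchymal factors were among the rises. Col1a1 measured 7.41 and 7.43 against 3.87 and 3.66, a rise of 3.66 ± 0.24, and Col1a2 rose by 3.59 ± 0.22. Vcam1, an adhesion receptor, measured 6.11 and 6.16 against 0.80 and 1.37, a rise of 5.05 ± 0.25 (limma adjusted p = 0.000127). The mesenchymal factors Prrx2 and Twist1 rose by 5.07 ± 0.28 and 3.65 ± 0.40.

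The falls included surface antigens and other genes of tissue fibroblasts. Pi16 measured -4.85 and -4.74 against 4.24 and 4.62, a difference of -9.23 ± 0.73. Ly6a, the antigen Sca-1, measured -2.46 and -2.49 against 3.27 and 3.62, a difference of -5.92 ± 0.27, and was also lower than in the CD45-positive (1.49 and 1.65) and CD45-negative (2.28 and 2.85) cells. Thy1, the antigen CD90, fell by 2.68 ± 0.31 and was 7.91 ± 0.31 below the CD45-negative cells (limma adjusted p = 0.000603), where it measured 7.30 and 6.96. Meox1, a factor of activated heart fibroblasts, fell by 5.09 ± 0.90. Pdgfra and Dcn, general fibroblast genes, did not pass: Dcn measured 7.66 and 7.73 against 7.39 and 8.34, within the span of the ventricle arrays.

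Of 50 matrix genes 30 rose and 5 fell, with a median of 1.81. Of 23 matrix proteases and inhibitors 17 rose and 2 fell, with a median of 1.96. Among all genes 20.3% rose and 18.8% fell, so both lists held proportionally fewer falls. Fn1, fibronectin, measured 8.35 and 8.37 against 3.15 and 3.46, a rise of 5.06 ± 0.21 (limma adjusted p = 8.99e-05). Tnc, a matrix protein of development and wounds, measured 0.20 and 0.11 against a ventricle not above background, at least a 34.6-fold rise (limma adjusted p = 0.00584). Mmp14, the membrane collagenase, rose by 4.92 ± 0.42, and Timp1, a protease inhibitor, measured 5.66 and 5.71 against -0.33 and 0.24, a rise of 5.73 ± 0.40. The falls included basement membrane genes: Lama2, the laminin chain around muscle fibres, measured -2.64 on both passage 8 arrays against 4.42 and 4.34, a difference of -7.02 ± 0.19, and was below both primary groups too. Fbln1, an elastic fibre protein, fell by 2.44 ± 0.34, Mmp15 at least 112-fold and the cardiac inhibitor Timp4 by 5.39 ± 0.57.

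Of 25 actin and YAP target genes 16 rose and 1 fell, where 20.3% and 18.8% of all genes did, with a median of 1.71. Anxa1, an annexin, rose by 3.81 ± 0.19 and Tmsb10, an actin-binding thymosin, by 2.98 ± 0.26. The 1 that fell, Myl12a, by 1.29 ± 0.31, was not called without passage 8 replicate 1, passage 8 replicate 2 or ventricle replicate 2 (limma adjusted p = 0.0648, 0.0904 and 0.0646). Leaving out ventricle replicate 1 gave 2 lower. Of 20 immediate early genes, which serum induces, 12 rose and 2 fell, against 20.3% and 18.8% of all genes, with a median of 2.37. Fosl1 measured 1.52 and 1.51 against a ventricle not above background, at least an 89.2-fold rise, and Egr1 measured 5.60 and 5.53 against -0.01 and 0.47, a rise of 5.34 ± 0.25. The 2 that fell were Dusp1, by 1.85 ± 0.34, and Klf2, whose difference of -1.68 was -1.05 without ventricle replicate 2 and was then not called (limma adjusted p = 0.0512), as it was not without passage 8 replicate 1 or 2 (limma adjusted p = 0.0715 and 0.0904).

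A list of genes of mesothelium, the lining of the heart surface, and of epithelia gave 9 higher and 4 lower of 22. Among all genes 20.3% were higher and 18.8% lower. The median of the list was 1.17. Lrrn4, a mesothelial surface protein, measured 3.50 and 2.82 against -2.49 and -2.95, a rise of 5.88 ± 0.39 (limma adjusted p = 0.000253). Crb2, an apical polarity protein, measured 1.02 and 0.99 against -3.95 and -3.28, a rise of 4.62 ± 0.37, and E-cadherin, Cdh1, was not above background in the ventricle and rose at least 4.93-fold. The uroplakin Upk1b rose by 3.68 ± 0.20 and keratin 7, Krt7, by 2.78 ± 0.31. Defining genes did not all follow. Msln measured 2.26 and 2.20 against 1.55 and 2.00 and did not pass (limma adjusted p = 0.327). Upk3b, with a difference of 1.39, passed only with the CD45-negative arrays left out (limma adjusted p = 0.0769 and 0.048). Wt1, the epicardial factor, measured 2.85 and 2.95 against 0.77 and 1.17 and passed only with the CD45-negative arrays left out (limma adjusted p = 0.118 and 0.00197). Krt8 was not above background in passage 8 cells and fell at least 17.4-fold. Muc16 and Dmkn also fell, with fitted differences of -5.14 and -3.80 (limma adjusted p = 0.00134 and 0.000879). Aldh1a2, the retinoic acid enzyme of epicardium, measured -3.84 and -3.61 against 0.21 and -0.80, a difference of -3.43 ± 0.71 that was -2.92 and not called without ventricle replicate 1 (limma adjusted p = 0.0643).

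Hox genes are arranged in 4 clusters whose order along the chromosome follows the body axis. Of 39 genes on the array 20 were tested, 17 rose and none fell, against 20.3% of all genes higher, with a median of 4.04. Because 9 of the 20 tested were seen only in passage 8 cells, the median with those genes at their bound was 3.73. By cluster, 6 of 8 tested HoxA genes rose, 6 of 7 HoxB genes and 5 of 5 HoxD genes, while none of the 9 HoxC genes was bright enough in either group to be tested. Their summed signal was 30.9 and 33.5 on the passage 8 arrays, 2.61 and 3.04 on the ventricle arrays and between 2.44 and 3.42 on the 4 primary arrays.

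Examples from each of these clusters, besides Hoxa7, follow. Hoxb7 measured 1.33 and 1.41 against a ventricle not above background, at least an 80.5-fold rise. Hoxd8 measured 1.41 and 1.43 against -4.13 and -2.96, a rise of 4.96 ± 0.50, and Hoxa5 rose at least 30.5-fold. The 3 tested genes that did not rise were Hoxa6 (0.96 ± 0.60), Hoxa9 (0.10 ± 0.33) and Hoxb6, which measured -0.40 and -0.48 against 0.44 and 0.41 and differed by -0.87, under 2-fold (limma adjusted p = 0.0434). Against each primary group 18 of 20 tested Hox genes were higher in passage 8 cells, where 12.6% of all genes were higher than in CD45-positive and 6.97% than in CD45-negative cells; these comparisons use the same passage 8 arrays. Hoxb6, below the ventricle, stood above both primary groups, which averaged -4.35 and -5.63.

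**Figure D5:**
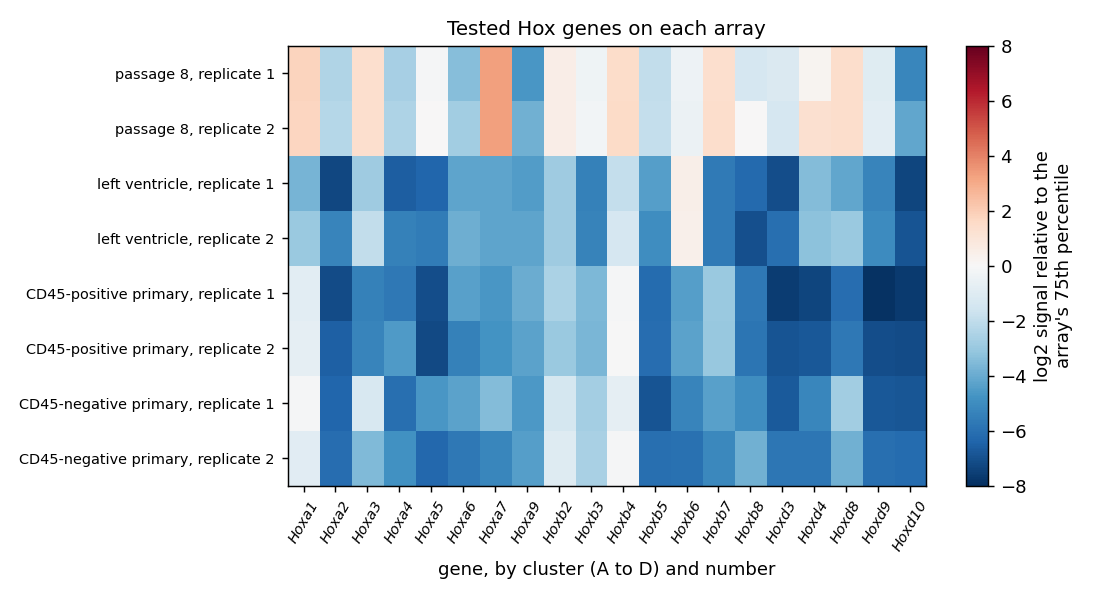
Heat map of the 20 tested Hox genes (columns, by cluster and number) on each of the 8 arrays (rows), coloured by log2 signal relative to the array's 75th percentile, from blue (low) to red (high). The passage 8 rows are paler or redder than the ventricle rows for most genes, while Hoxb6 is at 0.44 and 0.41 in the ventricle rows and -0.40 and -0.48 in the passage 8 rows.

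Imprinted genes, which are expressed from 1 parental copy and many of which act in fetal growth, gave 7 higher and 5 lower of 20, where 20.3% and 18.8% of all genes were, with a median of 0.27 (-0.02 without ventricle replicate 2). H19, a noncoding RNA of fetal tissues, measured 7.97 and 7.98 against 2.14 and 1.17, a rise of 6.32 ± 0.37 (limma adjusted p = 0.000184), and all 7 of its probes rose, by 1.36 to 7.11. Its neighbour Igf2, a fetal growth factor, measured 1.35 and 1.19 against -2.48 and -3.23, a rise of 4.13 ± 0.31. Plagl1, a zinc finger regulator of growth genes, measured 7.34 and 7.23 against 2.35 and 2.60, a rise of 4.81 ± 0.30, by 3 of 4 probes. With Dlk1 these genes also exceeded both primary groups: H19 by 8.18 ± 0.37 and 6.17 ± 0.37, Igf2 by 7.83 ± 0.31 and 6.81 ± 0.31 and Plagl1 by 8.06 ± 0.30 and 7.14 ± 0.30 over the CD45-positive and CD45-negative cells. Meg3, the noncoding neighbour of Dlk1, rose by 3.18 ± 0.31 over the ventricle. Falls included Slc38a4, an amino acid transporter, at least 54.1-fold, Slc22a3 at least 15.3-fold, Snrpn by 3.22 ± 0.36 and Mest by 2.68 ± 0.44.

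Of 18 genes of the IGF axis 7 rose and 3 fell, or 1 fell without ventricle replicate 2. Among all genes tested 20.3% rose and 18.8% fell. The 3 IGF2 mRNA-binding proteins, which are mostly fetal, all rose: Igf2bp1 at least 26.1-fold, Igf2bp3 at least 34-fold and Igf2bp2 by 4.0 ± 0.21. Igf1, an IGF of stroma, measured 3.75 and 3.86 against 0.30 and -0.05, a rise of 3.67 ± 0.23. The insulin receptor Insr fell by 2.07 ± 0.31 and Igfbp5, a secreted IGF-binding protein, by 7.09 ± 1.41, the latter not called without ventricle replicate 2 (-6.84, limma adjusted p = 0.0561).

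Genes of cell division were higher in the culture. Of 38 mitosis and spindle genes 36 rose and none fell, with a median of 4.80. Of 36 DNA replication genes 30 rose and none fell, with a median of 2.65. Among all genes 20.3% rose and 18.8% fell. Summed signals of the mitosis genes were 244.8 and 236.4 against 18.4 and 11.5. Mki67, the Ki-67 antigen of dividing cells, measured 4.57 and 4.46 against 0.89 and 0.27, a rise of 3.94 ± 0.31 (limma adjusted p = 0.0004). Cdk1, the kinase that starts mitosis, measured 3.24 on both arrays against -1.76 and -3.34, a rise of 5.79 ± 0.51. The rise of Cdk1 was 6.58 without ventricle replicate 1 and 5.00 without ventricle replicate 2. Ccnb2, the cyclin partner of Cdk1, measured 3.70 and 3.53 against -0.36 and -2.06, a rise of 4.83 ± 0.57. Without these arrays in turn the rise of Ccnb2 was 5.68 and 3.97. Prim2, a primase subunit, rose by 5.31 ± 0.58. Cenpa (0.93 ± 0.21) and Cep55 (0.55 ± 0.26) were the mitosis genes that did not pass, and a second Cep55 probe rose by 5.42. Pcna, the replication clamp, differed by 0.90 ± 0.30 and did not pass.

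The promoters of Cdk1 and Ccnb2 are printed because these partners hold both runs of letters searched in cell cycle promoters: TTTGAA, the core of the cell cycle homology region, and CCAAT, both in capitals on whichever strand they match. The windows are the 250 bases before the start on GRCm38.p6 from RefSeq, at chr10:69352913-69353162 (minus strand) for Cdk1 and chr9:70421555-70421804 (minus strand) for Ccnb2.
Cdk1: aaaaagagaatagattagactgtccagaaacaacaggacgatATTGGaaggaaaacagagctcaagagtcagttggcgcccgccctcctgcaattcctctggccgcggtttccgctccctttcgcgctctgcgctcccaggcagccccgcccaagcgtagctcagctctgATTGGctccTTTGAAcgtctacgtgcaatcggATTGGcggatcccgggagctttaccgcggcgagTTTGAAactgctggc
Ccnb2: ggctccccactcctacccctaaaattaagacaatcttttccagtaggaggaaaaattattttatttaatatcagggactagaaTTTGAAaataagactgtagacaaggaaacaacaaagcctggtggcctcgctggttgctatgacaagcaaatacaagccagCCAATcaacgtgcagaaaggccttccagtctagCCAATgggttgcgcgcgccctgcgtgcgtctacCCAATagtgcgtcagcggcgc
Cdk1 held 2 matches to TTTGAA and 3 to CCAAT, and Ccnb2 held 1 and 3. Promoters were found for 33 of the 38 mitosis genes, in 36 windows. CCAAT was in 26 of them (72.2%) against 33.8% of all windows, and TTTGAA in 12 (33.3%) against 16%. In the 33 windows of replication genes CCAAT was in 17 (51.5%) and TTTGAA in 4 (12.1%). CArG boxes, held by only 1.47% of all windows, were in none of the 36 mitosis windows.

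Most mitosis genes were not called between passage 8 cells and the primary cells. Against CD45-positive cells 10 of 38 mitosis genes were higher and none lower, where 12.6% of all genes were higher, and against CD45-negative cells 1 was higher, where 6.97% were. Mki67 was 1.08 ± 0.31 above the CD45-positive cells (limma adjusted p = 0.0489) and 0.28 ± 0.31 above the CD45-negative cells (limma adjusted p = 0.579).

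Of 18 cell cycle inhibitor and p53 genes 11 rose and 2 fell against the ventricle, where 20.3% and 18.8% of all genes did. The count of rises was 7 without passage 8 replicate 2, and 4 fell without ventricle replicate 1. Cdkn2b, which encodes p15, measured -1.56 and -1.45 against -3.67 and -2.77, a rise of 1.71 ± 0.32, and Cdkn2a, which encodes p16 and p19Arf, measured 0.30 and 0.83 against -3.92 and -6.73, a rise of 5.90 ± 0.87 (4.49 without ventricle replicate 2). Both were lower than in the primary cells: Cdkn2b by 3.33 ± 0.32 and 4.70 ± 0.32 and Cdkn2a by 3.22 ± 0.87 and 4.73 ± 0.87 against CD45-positive and CD45-negative cells (limma adjusted p = 0.00183, 0.00141, 0.0417 and 0.0215). Trp53 rose by 1.97 ± 0.26 over the ventricle and Tert, the telomerase catalytic subunit, by 1.88 ± 0.28, at -1.72 and -1.69 against -3.44 and -3.74. The 2 that fell were Ccng1, a p53 target, by 2.74 ± 0.31 and Rb1 by 1.38 ± 0.26.

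Shares called among secreted signals are set beside those of all genes, of which 20.3% rose and 18.8% fell. Of 30 BMP ligands and antagonists 8 rose and 7 fell, with a median of 0.56. Antagonists led the rises: Grem1, and Chrdl2, a chordin relative, at 2.52 and 2.53 against -3.62 and -3.28, by 5.98 ± 0.84. The ligand Gdf6 rose by 4.22 ± 0.49, and Bmp2 fell by 3.11 ± 0.58. Bmp4 measured 4.22 and 4.19 against 1.49 and 2.39 and passed only with the CD45-negative arrays left out (limma adjusted p = 0.14 and 0.00575).

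Of 26 Wnt pathway genes 10 rose and 5 fell, where 20.3% and 18.8% of all genes did, with a median of 1.02. The secreted inhibitor Sfrp1 measured 4.10 and 3.99 against -1.50 and -1.67, a rise of 5.63 ± 0.21 (limma adjusted p = 7.66e-05). The inhibitor Wif1 was not above background in passage 8 cells and fell at least 184-fold. Axin2, a target of the canonical pathway, likewise fell at least 9.09-fold, and Wnt11, a noncanonical ligand, by 3.10 ± 0.41.

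Of 31 growth factors 9 rose and 9 fell, where 20.3% and 18.8% of all genes did. Ptn, pleiotrophin, measured 3.50 and 3.53 against -1.57 and -1.87, a rise of 5.24 ± 0.94. Nrg1, a ligand that supports heart muscle cells, measured 3.33 and 3.26 against -1.91 and -1.08, a rise of 4.79 ± 0.46, and the lymphangiogenic Vegfd rose by 5.51 ± 0.38. Fgf1 measured -2.88 and -2.91 against 5.61 and 5.05, a difference of -8.22 ± 0.71, and Angpt1, a ligand that stabilises vessels, fell by 6.95 ± 1.13. Vegfa, at 3.92 and 3.95 against 4.02 and 3.88, did not pass, with the passage 8 arrays inside the span of the ventricle arrays.

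Of 23 cytokines and chemokines 11 rose and 8 fell, where 20.3% and 18.8% of all genes did, with a median of 1.23. Cxcl12, the stromal chemokine, measured 8.25 on both passage 8 arrays against 4.93 and 4.59, a rise of 3.49 ± 0.21, and exceeded both primary groups. Il33, an alarmin of stromal nuclei, measured 5.18 and 5.27 against -1.09 and -0.70, a rise of 6.12 ± 0.30, and was 7.43 ± 0.30 above the CD45-positive cells. Il6 rose at least 84.5-fold over a ventricle not above background and Ccl2 by 4.19 ± 0.28, yet both were lower than in the primary cells, Il6 by 2.46 ± 0.36 and 2.62 ± 0.36 against CD45-positive and CD45-negative cells. Ccl6, a myeloid chemokine, fell by 6.72 ± 1.13 and Cxcl14 by 6.17 ± 0.79. Of 25 interferon-induced genes 7 rose and 3 fell, with a median of 0.68, a count near the 39.2% called among all genes. Bst2 rose by 2.29 ± 0.24 and Gbp2 fell by 1.90 ± 0.31.

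Of 15 iron and Steap genes 6 rose and 1 fell, where 20.3% and 18.8% of all genes did, with a median of 0.71. Besides Steap1, the metalloreductase Steap2 measured 2.94 and 2.89 against -4.27 and -3.42, a rise of 6.77 ± 0.31 (limma adjusted p = 0.000108). Trf, transferrin, rose by 3.19 ± 0.47. Steap4 lay between the ventricle arrays, at -0.04 and 0.14 against -0.16 and 0.34. The exporter Slc40a1 was the 1 that fell, by 1.67 ± 0.42, a call lost without passage 8 replicate 1 or 2 or ventricle replicate 2 (limma adjusted p = 0.0729, 0.0734 and 0.0647), while 2 of the list fell without ventricle replicate 1. Tfrc gave -0.62 ± 1.19 and did not pass; the difference was -2.64 without ventricle replicate 2 and 1.40 without replicate 1, both past the threshold (limma adjusted p = 0.00364 and 0.0149).

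Of 17 pluripotency and stem antigen genes tested, 3 rose and 7 fell, where 20.3% and 18.8% of all genes did, with a median of -1.44. Sox2 was not above background on any of the 4 arrays and Pou5f1 on 1 only, so neither was tested. Nanog measured -0.09 and -0.24 against 1.20 and 0.63, a difference of -1.08 ± 0.32 that was not called without ventricle replicate 1 (-0.80, limma adjusted p = 0.145) or either passage 8 array (limma adjusted p = 0.102 and 0.147), or without either CD45-positive array (limma adjusted p = 0.0696). The 3 that rose were Fbxo15, at least 2.17-fold, Dnmt3l by 1.39 ± 0.27, not called without passage 8 replicate 2 (1.34, limma adjusted p = 0.0525), and Myc by 2.88 ± 0.47, or 2.16 without ventricle replicate 1. Esrrb, which heart muscle also expresses, fell by 6.75 ± 0.41.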

How the data were processed

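RNA of 8 samples in 4 groups of 2 was measured on one-colour Agilent mouse arrays. The authors deposited scanner output, which the submitters' processing notes credit to Agilent Feature Extraction 10.7, with the processed signal intensity of each spot, spatially detrended within the array per the file headers. A table of log2 values that the authors deposited served as an alternative; how it was centred is unstated. Probe positions are mm9, per the file headers.

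Spots of a probe were averaged, and log2 processed signal minus the array's 75th percentile was fitted with limma 3.58.1 in R 4.3.3 (lmFit, eBayes). All 8 arrays shared 1 estimate of the spread, which includes the wide CD45-negative group. P-values were adjusted by Benjamini-Hochberg over all genes tested. A gene was read by the probe with the highest mean over the 8 arrays; 11042 genes had several probes. An exact permutation of 2 against 2 arrays cannot give a two-sided p below 0.333, so the fit across all genes was used. Tested on simulated data for passage 8 against left ventricle over 24072 genes, it recovered 51 of 100 genes changed by 2 and 89 of 100 changed by 4 on the log2 scale, and called 2 unchanged genes. The simulation changed far fewer genes than the 39.2% called here. It also gave all groups the same spread for a gene, unlike these groups. Its rates of recovery and false calls therefore do not carry over to this comparison.

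Genes named are the markers, Kit and Ptprc, the 8 highest and 8 lowest differences among passing genes seen on all 4 arrays, the 6 highest bounds in each direction, and members of 37 lists. Members and lists were chosen with earlier results of these data known. Promoters are the 250 bases before each start in RefSeq on GRCm38.p6. Alternatives changed the scaling, background correction, dim-probe filter, probe rule, thresholds, moderation, arrays fitted and replicate block. Values of some list members are not reported here.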

Additional observations from a re-analysis of the deposited data

How the results depend on the processing

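The count of genes past the thresholds between passage 8 and left ventricle, 9450, was 7127 to 10069 with 1 array left out and 4263 at an adjusted p under 0.01 and 4-fold; under the other settings it stayed within 1.5 times. Against CD45-positive cells the 5546 genes became 2194 to 4908 with 1 array left out (2425 without CD45-positive replicate 1, 2194 without replicate 2 and 2904 without passage 8 replicate 2). Against CD45-negative cells the 3193 became 854 to 5194 (905 and 854 without passage 8 replicates 1 and 2, and 5194 without CD45-negative replicate 1). Genes higher made up 51.9% of those called, 47.4% to 55.2% under other scalings and 61.0% without passage 8 replicate 1. The median difference of all genes was 0.05, and 0.101 under quantile normalization, 0.197 under median centring and -0.118 under normexp. The labels do not say that replicate numbers pair the samples, though replicates 1 and 2 of each group lay in slide rows 1 and 2. Over 18053 genes, replicate differences of passage 8 correlated at -0.09 with those of left ventricle, -0.07 with CD45-positive and 0.17 with CD45-negative cells, and those of left ventricle and CD45-positive cells at 0.19. With the replicate block 9298, 5233 and 2694 genes passed in the 3 comparisons. Genes seen only in passage 8 numbered 1080, and only in the ventricle 775, where every probe had to agree.

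Of 300 named genes 242 were called. Of these, 201 were called in the same direction under every alternative in which they were still tested. The changed thresholds were not applied to single genes, and genes dim in 1 group were not judged under the filter on all 4 arrays. Directions turned for Tpm1 (-1.40) and Itpr2 (-2.54) as means of all probes, for Myod1 (-0.0284) and Peg10 (-0.047) under normexp, and for Tfrc, which ran from -2.64 to 1.40 with 1 array left out. List medians turned for creatine (0.43) and skeletal muscle (2.25) with genes well above background on all 4 arrays, for skeletal muscle under median centring (0.00948) and with 1 array left out (-0.37 to 0.10), for imprinted genes with 1 array left out (-0.024 to 0.49) and for the Wnt list with no filter (-0.064). The causes were not tested. Arrays limit precision by their number, 2 a group, and genes near background have bounds only.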

Other observations

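Genes of cholesterol metabolism, a list chosen after their values were seen and so given with no test of the list, were mostly higher in the passage 8 cells. Of 21 tested 15 rose, none fell and 6 did not pass, where 20.3% of all genes rose, with a median of 2.21. Lss, a late enzyme of the pathway, measured 1.25 and 1.29 against -3.77 and -4.25 in the ventricle. Fdft1 (0.22) and Mvk (0.77) were among the 6 that did not pass. The medians in the CD45-positive and CD45-negative primary cells relative to the ventricle, which share the ventricle arrays, were 2.21 and 2.70, and 1 and 2 of the 21 genes were called between passage 8 cells and these groups.

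Transcription factors with bounds, also chosen after their values were seen, included Dmrt2, at 1.96 and 1.98 in passage 8 cells and not above background in the ventricle, at least 122-fold (limma adjusted p = 0.000103). Foxf2 was higher at least 82.4-fold and Sox11 at least 30.9-fold. Hmga2, a chromatin protein of fetal and dividing cells, was higher by 6.94 ± 0.32.

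The labels give no sex for these mice. The Y-linked gene Ddx3y measured -1.49 and -1.53 in passage 8 cells against 1.88 and 2.58 in the ventricle, and Eif2s3y -0.21 and -0.01 against 3.45 and 3.28. Differences from the ventricle were -3.74 ± 0.33 for Ddx3y and -3.47 ± 0.24 for Eif2s3y (limma adjusted p = 0.000537 and 0.000269). Uty, also Y-linked, differed by -3.33 ± 0.85 (limma adjusted p = 0.022), a call lost without ventricle replicate 1, ventricle replicate 2 or passage 8 replicate 1 (limma adjusted p = 0.0903, 0.0929 and 0.0764). Of the X-linked genes, Eif2s3x differed by -2.11 ± 0.25 by its brighter probe and by 1.37 by the other, both past the threshold, and Xist, too dim to be tested, measured -4.24 and -7.58 against -5.35 and -7.04.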
